A study of Rattus norvegicus with 12 samples.

Results

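The genes described here are 10 members of the autophagy and mitophagy machinery, taken by symbol from the 34599 genes of the count table. They comprise the mitophagy receptors Bnip3, Bnip3l and Fundc1, the kinase Pink1 and the cargo adaptor Sqstm1, the initiation factors Ulk1 and Becn1, the autophagosome protein Map1lc3b, and the lysosomal genes Tfeb and Lamp2. They were chosen by name, with earlier results of these data known. All 10 passed the filter on low counts, which left 15101 genes for testing. Their levels ran from 14.9 CPM for Fundc1 to 1127 CPM for Pink1.

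RNA was sequenced from the left ventricle of 12 male SD rats, 4 in each of 3 groups, 1 day after surgery. Sham rats had a thoracotomy, and their coronary artery was not tied. MI rats had the left anterior descending coronary artery ligated and received nothing more. The iCarP+/Light+ rats had the same ligation, after which the green alga Chlorella was injected into the infarcted wall, a light-scattering patch (iCarP) was glued onto the epicardium over it, and red light was passed through the patch for photosynthesis. Alga, patch, adhesive and light came together in this group, so their parts cannot be told apart. Infarcted tissue was harvested according to the labels, which do not say where the Sham tissue was cut, and sequencing batches are not given in the labels. Rats are named by the numbers in their labels, which were 1, 2, 3 and 5 in Sham, 1, 3, 4 and 5 in MI and 1, 2, 4 and 5 in iCarP+/Light+, and values are listed in that order. The labels number the samples without saying how they were prepared, so the p-values measure only the spread between these samples, which may be partly technical. MI rats enter the comparison with Sham and that with iCarP+/Light+, so these share samples and are set side by side.

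Libraries held 14064414 to 17136958 counts. The mitochondrial genome took 26.0% ± 2.49 of the counts in Sham rats, 10.1% ± 1.40 in MI rats and 10.3% ± 3.36 in iCarP+/Light+ rats (SD, n = 4). Levels below are CPM, counts relative to the library size after TMM scaling, with the mean ± SD over 4 rats. The ventricle was recognisable by its markers. In Sham the summed level of 9 cardiomyocyte genes was 42986 to 48056 CPM. It was 2826 to 5420 CPM in MI and 2215 to 6326 CPM in iCarP+/Light+ rats. Myh6 and Actc1, the sarcomere genes with the highest mean, were 26.5-fold and 11.1-fold lower in MI than in Sham. Fibroblast genes were lower in MI for 6 of 8 tested (Col1a1 2.94-fold, Col3a1 4.76-fold) and higher for 1, Postn (122 to 313 CPM), while endothelial genes were lower for 7 of 7 (Cdh5 2.43-fold, Tie1 1.66-fold). From MI to iCarP+/Light+, 1 of 8 fibroblast genes was called higher, with a median log2 fold change of -0.32 over the 8, and endothelial genes were called in 0 of 7 by edgeR, with 1 at an unadjusted p below 0.05 and 0 with DESeq2 and limma-voom. In bulk tissue, fewer cells of a type and less RNA per cell cannot be told apart.

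Autophagy encloses cytoplasm in a double membrane that fuses with the lysosome, and mitophagy is its form that removes mitochondria. A mitochondrion can be marked for removal by receptors in its outer membrane that bind LC3 directly, such as BNIP3, its relative BNIP3L (NIX) and FUNDC1, or by the kinase PINK1, which builds up on depolarised mitochondria and starts a ubiquitin signal that attracts adaptors such as p62, the product of Sqstm1. Bnip3 and Bnip3l are textbook targets of the hypoxia-inducible factors, and in the heart all of these genes are studied for how cardiomyocytes deal with damaged mitochondria after ischaemia.

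Since hypoxia-inducible factors bind DNA at ACGTG or GCGTG, the 250 bases before the start site are shown for Bnip3, as a known target, for Pink1, as the other route, and for Sqstm1, as another member that rose in iCarP+/Light+ rats. The sequences are RefSeq's for the GRCr8 build, all on the minus strand: Bnip3 at chr1:203154963-203155212, Pink1 at chr5:155825951-155826200 and Sqstm1 at chr10:35037751-35038000. Capitals mark ACGTG or GCGTG on either strand (CACGT or CACGC when read on the opposite strand).
Bnip3: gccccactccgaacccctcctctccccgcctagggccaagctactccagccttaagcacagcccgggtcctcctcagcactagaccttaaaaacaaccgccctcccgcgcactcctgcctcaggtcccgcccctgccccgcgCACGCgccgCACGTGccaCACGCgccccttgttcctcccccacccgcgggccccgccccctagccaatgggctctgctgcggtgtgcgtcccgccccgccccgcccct
Pink1: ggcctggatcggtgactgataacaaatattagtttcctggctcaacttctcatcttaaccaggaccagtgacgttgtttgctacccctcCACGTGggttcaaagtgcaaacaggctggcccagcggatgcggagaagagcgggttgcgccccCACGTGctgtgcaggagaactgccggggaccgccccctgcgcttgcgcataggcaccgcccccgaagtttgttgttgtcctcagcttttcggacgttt
Sqstm1: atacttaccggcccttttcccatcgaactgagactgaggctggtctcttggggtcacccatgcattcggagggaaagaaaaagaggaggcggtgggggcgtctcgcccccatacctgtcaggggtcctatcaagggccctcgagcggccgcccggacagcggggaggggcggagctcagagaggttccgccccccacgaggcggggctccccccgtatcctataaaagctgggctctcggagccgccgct
The Bnip3 promoter held CACGTG with a CACGC on either side of it within a short stretch, the 3 matches starting 108, 99 and 90 bases before the start site. CACGTG contains ACGTG on both strands and is also the E-box letters that TFEB and many other factors read. Pink1 held CACGTG at 161 and 98 bases before its start site, and Sqstm1 held none of these letters in this window. Of 33469 rat promoters of this length, 36.7% held ACGTG or GCGTG, 16.6% held ACGTG, 25.9% held GCGTG and 5.59% held CACGTG. Among the other members with a promoter in the table, Map1lc3b, Tfeb and Lamp2 held GCGTG and Ulk1 held neither. A match of letters describes the sequence and is no measure of binding.

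In MI against Sham, 5 members fell and 1 rose. Pink1, Ulk1, Fundc1, Bnip3 and Map1lc3b were lower, Lamp2 was higher, and Bnip3l, Sqstm1, Becn1 and Tfeb did not pass the threshold. Over all genes tested, 33.6% were lower and 30.2% higher at an adjusted p below 0.05 in edgeR's quasi-likelihood test. For 6 members the ranges of the 2 groups did not overlap, as they did not for 59% of all genes. In iCarP+/Light+ against MI, 7 members rose: Bnip3, Sqstm1, Bnip3l, Tfeb, Ulk1, Lamp2 and Map1lc3b. Here 11.6% of all genes were higher and 2.01% lower, and the ranges did not overlap for 6 members and for 16.4% of all genes. The count of members that fell was 0 with edgeR, also at an unadjusted p below 0.05, and 0 with DESeq2 and limma-voom. With total counts alone as the scaling, 73.5% of all calls from Sham to MI were higher, against 47.3% with TMM, and 30.6% of those from MI to iCarP+/Light+, against 85.2%. This scaling moved the median of all genes by 0.52 and -0.25, and under it 3 members rose and 4 fell at the first step and 5 rose and 1 fell at the second. The median log2 fold change of the members was 0.70 in this comparison, against 0.01 over all genes, and -0.71 from Sham to MI, against -0.06 over all genes. In iCarP+/Light+ against Sham, 5 members were higher and 4 lower (33.5% and 33% of all genes, or 6 and 4 members with 64.7% of all calls higher under total counts alone, against 50.3%), with ranges apart for 8 members and for 63.5% of all genes.

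**Figure D1:**
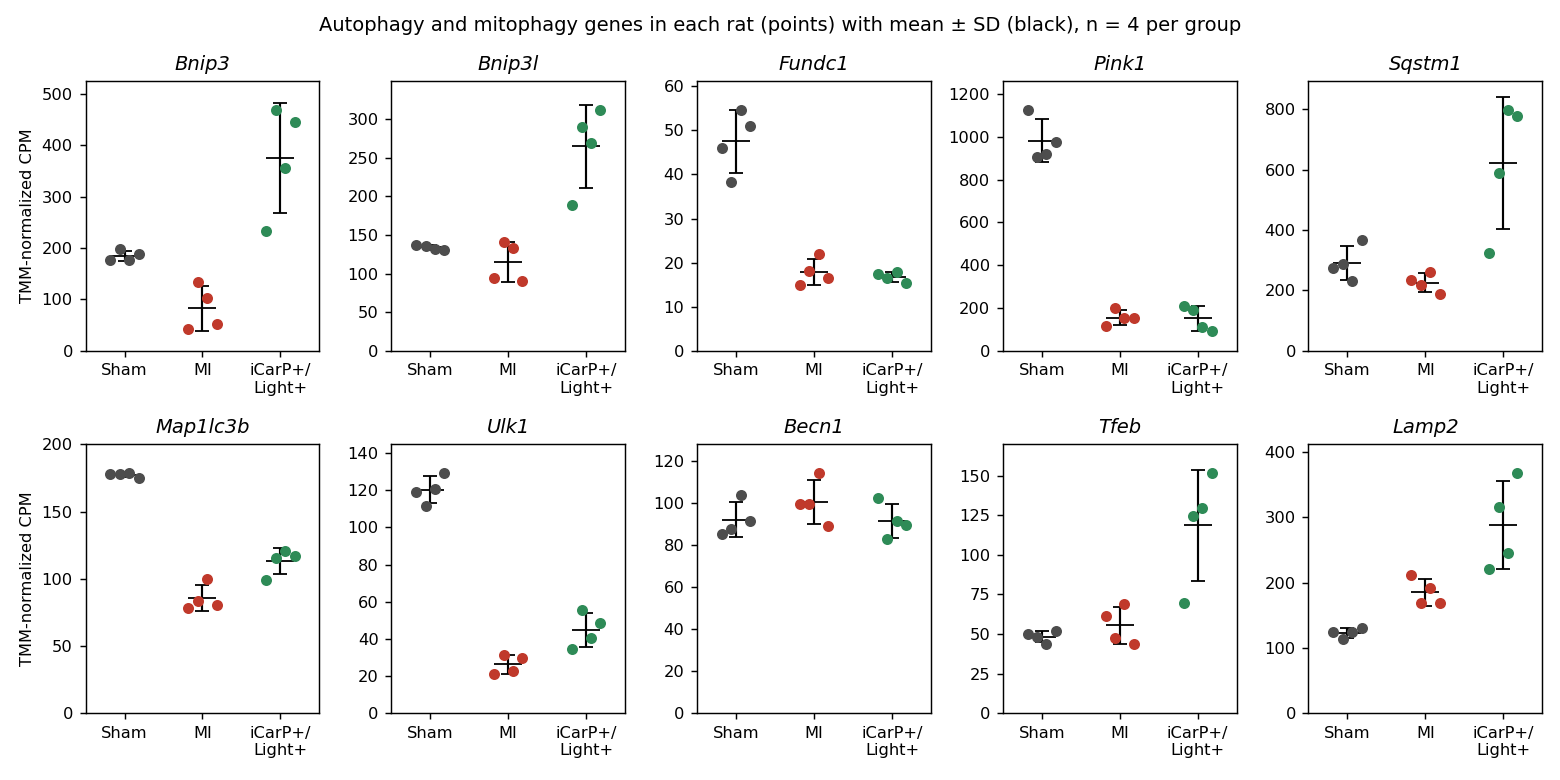
Level of each of the 10 members in TMM-normalized CPM (y axis, from 0) by group (x axis), where each point is a rat and black bars give the mean ± SD of 4 rats. Bnip3 and Bnip3l were highest in iCarP+/Light+ rats, while Pink1 and Fundc1 were highest in Sham and lay in overlapping ranges in MI and iCarP+/Light+ rats.

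Bnip3 (ENSRNOG00000017243, rn6 chromosome 1, 211248098 to 211265282) encodes an outer-membrane receptor that tethers mitochondria to LC3. Its level was 178, 198, 177 and 188 CPM in Sham rats, 41.5, 134, 102 and 51.4 CPM in MI rats, and 233, 469, 355 and 445 CPM in iCarP+/Light+ rats. The 3 groups did not overlap, with MI lowest and iCarP+/Light+ highest, and the MI rats spread widely among themselves. From Sham to MI, Bnip3 fell by 1.17 on the log2 scale (SE 0.32, adjusted p = 0.00661), from 185 ± 9.70 to 82.3 ± 43.7 CPM. In iCarP+/Light+ rats it was 4.56-fold above MI, at 376 ± 107 CPM (log2 fold change 2.19, SE 0.33, adjusted p = 0.000647). It was also 2.03-fold above Sham (adjusted p = 0.0133). The fall after infarction was -0.60 with an adjusted p of 0.0947 when libraries were scaled by total counts alone and -1.13 once the median gene under that scaling is subtracted.

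Bnip3l (ENSRNOG00000009820, chromosome 15, 43643897 to 43667029) encodes NIX, the receptor by which maturing red blood cells clear their mitochondria. It was at 137, 136, 132 and 130.3 CPM in Sham rats, 94.5, 140.5, 133 and 90.0 CPM in MI rats, and 189, 289.8, 269 and 312 CPM in iCarP+/Light+ rats. MI rats spread below and above the narrow Sham range, and iCarP+/Light+ rats all lay above both. The difference between MI and Sham did not pass (log2 fold change -0.22, 95% interval -0.60 to 0.15, adjusted p = 0.276), and was 0.35 (adjusted p = 0.0664) under total counts alone, which is -0.17 once the median gene is subtracted. From MI to iCarP+/Light+, Bnip3l rose 2.31-fold (1.21, SE 0.18, adjusted p = 0.000481), from 114 ± 25.9 to 265 ± 53.7 CPM, and it stood 1.98-fold above Sham (adjusted p = 0.000257). Since Bnip3l is active in red cells, erythroid genes were set beside it. Of 8 tested, 6 were lower in MI than in Sham and 4 rose from there to iCarP+/Light+ (Hbb 3.03-fold, Hba-a1 2.92-fold), and their summed level was 2506 to 6932 CPM in MI, 6188 to 17471 CPM in iCarP+/Light+ and 7926 to 10600 CPM in Sham rats. Their part in the Bnip3l levels was not tested.

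Fundc1 (ENSRNOG00000003470, chromosome X, 5549419 to 5566127) encodes a receptor whose binding to LC3 is set by phosphorylation during hypoxia. Its level was 46.0, 38.4, 54.7 and 51.1 CPM in Sham rats, 14.9, 18.1, 21.9 and 16.5 CPM in MI rats, and 17.5, 16.5, 17.9 and 15.4 CPM in iCarP+/Light+ rats. Every Sham rat lay above all infarcted rats, whose groups overlapped. Fundc1 fell 2.66-fold from Sham to MI (log2 fold change -1.41, SE 0.14, adjusted p = 2.18e-06). Between MI and iCarP+/Light+ it differed by -0.09 (95% interval -0.39 to 0.22, adjusted p = 0.761).

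Pink1 (ENSRNOG00000015385, chromosome 5, 156677146 to 156689415) had the highest level per length of the 10 genes in Sham. It was at 1127, 907, 921 and 977 CPM in Sham rats, 114, 199, 151 and 152 CPM in MI rats, and 211, 188, 111 and 93.6 CPM in iCarP+/Light+ rats. The lowest Sham rat, at 907 CPM, stood far above the highest infarcted rat, at 211 CPM, and the infarcted groups overlapped. Pink1 fell 6.38-fold from Sham to MI (-2.67, SE 0.26, adjusted p = 1.69e-06), from 983 ± 100.5 to 154 ± 34.9 CPM. In iCarP+/Light+ rats the mean was 151 ± 57.5 CPM, and the change from MI was -0.03 (95% interval -0.55 to 0.50, adjusted p = 0.964). Against Sham, Pink1 was 6.50-fold lower in iCarP+/Light+ rats (adjusted p = 1.23e-06). Cardiomyocyte markers were also highest in Sham: all 9 tested fell from Sham to MI, by a median of -3.30 on the log2 scale. Between MI and iCarP+/Light+ the count of these markers called was 0 with edgeR, also at an unadjusted p below 0.05 and with DESeq2 and limma-voom, and the median change was 0.01. Within the iCarP+/Light+ group, rats 1, 2, 4 and 5 had summed cardiomyocyte levels of 6326, 5014, 2959 and 2215 CPM, the same order of rats as Pink1. The order was not the same in the other groups. In Sham, rat 2 had the highest sum (48056 CPM) and the lowest Pink1 (907 CPM). In MI rats 1, 3, 4 and 5 the sums were 2826, 5420, 5378 and 4473 CPM, beside 114, 199, 151 and 152 CPM of Pink1. Fundc1 had another order in iCarP+/Light+ rats 1, 2, 4 and 5 (17.5, 16.5, 17.9 and 15.4 CPM). The part of cardiomyocyte content in the Pink1 and Fundc1 levels was not tested.

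Sqstm1 (ENSRNOG00000003147, chromosome 10, 35704730 to 35716294) encodes p62, which links ubiquitinated cargo to LC3 and is itself broken down with it. It was at 275, 286, 232 and 368 CPM in Sham rats, 236, 218, 261 and 188 CPM in MI rats, and 324, 588, 798 and 778 CPM in iCarP+/Light+ rats. MI overlapped Sham, and iCarP+/Light+ lay above MI throughout. The change from Sham to MI was -0.36 (95% interval -0.89 to 0.16, adjusted p = 0.209), and 0.21 (adjusted p = 0.432) under total counts alone, which is -0.31 once the median gene is subtracted. It then rose 2.75-fold to iCarP+/Light+ (1.46, SE 0.25, adjusted p = 0.00138). It was 2.14-fold higher than in Sham (adjusted p = 0.00142), although rat 1 of the iCarP+/Light+ group lay below the highest Sham rat. Sqstm1 shares 47 bases with Mrnip on the opposite strand, which had 431 counts over the 12 rats against 70967 for Sqstm1.

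Ulk1 (ENSRNOG00000037505, chromosome 12, 51908448 to 51934702) encodes the kinase that starts autophagosome formation. It was at 119, 112, 121 and 129.5 CPM in Sham rats, 21.0, 31.7, 22.6 and 30.0 CPM in MI rats, and 34.6, 55.8, 40.4 and 48.8 CPM in iCarP+/Light+ rats. The groups did not overlap, with MI lowest and iCarP+/Light+ between MI and Sham. Ulk1 fell 4.57-fold from Sham to MI (-2.19, SE 0.17, adjusted p = 3.13e-07), rose 1.71-fold from MI to iCarP+/Light+ (0.77, SE 0.16, adjusted p = 0.00666) and stayed 2.68-fold below Sham (adjusted p = 6.78e-06). Becn1 (ENSRNOG00000020513, chromosome 10, 89209940 to 89225297) encodes beclin 1, a subunit of the lipid kinase complex that acts after ULK1. It was at 85.1, 87.5, 104 and 91.4 CPM in Sham rats, 99.3, 99.7, 114 and 88.9 CPM in MI rats, and 102, 82.8, 91.3 and 89.7 CPM in iCarP+/Light+ rats. All groups overlapped, and with edgeR Becn1 passed in 0 of 3 comparisons (adjusted p = 0.316, 0.487 and 0.960), also at an unadjusted p below 0.05 and with DESeq2 and limma-voom. In the fit of MI and Sham alone it was 0.26 higher in MI (adjusted p = 0.0492). The 95% interval of its change was -0.11 to 0.36 from Sham to MI and -0.37 to 0.10 from MI to iCarP+/Light+. With total counts alone as the scaling it passed in all 3 comparisons, with changes of 0.71 from Sham to MI (adjusted p = 5.77e-05), -0.40 from MI to iCarP+/Light+ (adjusted p = 0.0193) and 0.31 from Sham to iCarP+/Light+ (adjusted p = 0.0200), which are 0.19, -0.14 and -0.02 once the median gene is subtracted.

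Map1lc3b (ENSRNOG00000017905, chromosome 19, 53629779 to 53646058) encodes the LC3 protein that is joined to lipid in the growing membrane. It was at 178, 178, 179 and 175 CPM in Sham rats, 78.7, 83.7, 99.6 and 80.3 CPM in MI rats, and 99.1, 116, 121 and 117 CPM in iCarP+/Light+ rats. Sham rats lay together well above the rest, and the lowest iCarP+/Light+ rat fell just within the MI range. The gene fell 2.07-fold from Sham to MI (-1.05, SE 0.10, adjusted p = 1.90e-06) and rose 1.32-fold from MI to iCarP+/Light+ (0.40, SE 0.10, adjusted p = 0.0184). That rise lost its call when any of MI rats 1, 3 and 5 or iCarP+/Light+ rats 2, 4 and 5 was left out, with a lowest value of 0.31 (adjusted p = 0.123) without iCarP+/Light+ rat 5, in the fit of these 2 groups alone (0.36, adjusted p = 0.0921), and under total counts alone (0.14, adjusted p = 0.295, or 0.39 once the median gene is subtracted). Against Sham it was 1.57-fold lower in iCarP+/Light+ rats (adjusted p = 9.58e-05).

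Tfeb (ENSRNOG00000014666, chromosome 9, 15207822 to 15214596) encodes a transcription factor that switches on lysosomal and autophagy genes when it enters the nucleus. It was at 50.1, 48.4, 43.6 and 51.7 CPM in Sham rats, 61.3, 47.8, 69.0 and 43.8 CPM in MI rats, and 69.5, 124, 129.6 and 152 CPM in iCarP+/Light+ rats. MI rats overlapped the Sham range and reached above it, and rat 1 of iCarP+/Light+ was barely above the highest MI rat. Tfeb did not pass from Sham to MI (0.20, 95% interval -0.26 to 0.65, adjusted p = 0.431), but was 0.77 higher (adjusted p = 0.00323) under total counts alone, which is 0.25 once the median gene is subtracted. It rose 2.14-fold from MI to iCarP+/Light+ (1.10, SE 0.21, adjusted p = 0.00334), and by 0.83 (adjusted p = 0.0104) under total counts alone. It was 2.45-fold above Sham (adjusted p = 0.000129). Lamp2 (ENSRNOG00000000164, chromosome X, 124722628 to 124766044) encodes a lysosomal membrane protein needed for autophagosomes to be cleared, and its loss causes the cardiomyopathy of Danon disease. It was at 125, 113, 125 and 131 CPM in Sham rats, 212, 168, 191 and 169 CPM in MI rats, and 221, 316, 245 and 368 CPM in iCarP+/Light+ rats. The 3 groups did not overlap. With TMM scaling Lamp2 rose at both steps, from Sham to MI (0.58, SE 0.15, adjusted p = 0.00467) and from MI to iCarP+/Light+ (1.55-fold, 0.64, SE 0.15, adjusted p = 0.0134). The second rise was 0.42 (adjusted p = 0.0758) without iCarP+/Light+ rat 5, and 0.59 (adjusted p = 0.0584) in the fit of these 2 groups alone. Under total counts alone it was 0.36 (adjusted p = 0.0653), or 0.61 once the median gene is subtracted, so that with this scaling Tfeb and not Lamp2 passed at both steps.

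Of the leukocyte genes, all 9 tested rose from Sham to MI. From MI to iCarP+/Light+ 5 of 9 rose, while the mean was lower for 3, Lyz2 (4061 to 2964 CPM), Csf1r (419 to 283 CPM) and Cd68 (181 to 138 CPM), and the count called lower was 0 with edgeR and limma-voom, 1 at an unadjusted p below 0.05 and 1 with DESeq2. Lyz2 was 19.2-fold higher at the first step and had an adjusted p of 0.292 at the second, whereas S100a9, a neutrophil gene, was 61.3-fold and then 11.5-fold higher. Their summed level was 360.3 to 583 CPM in Sham rats, 4674 to 7907 CPM in MI rats and 6813 to 12152 CPM in iCarP+/Light+ rats. Their part in the rises of Sqstm1, Tfeb and Lamp2 was not tested.

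**Figure D2:**
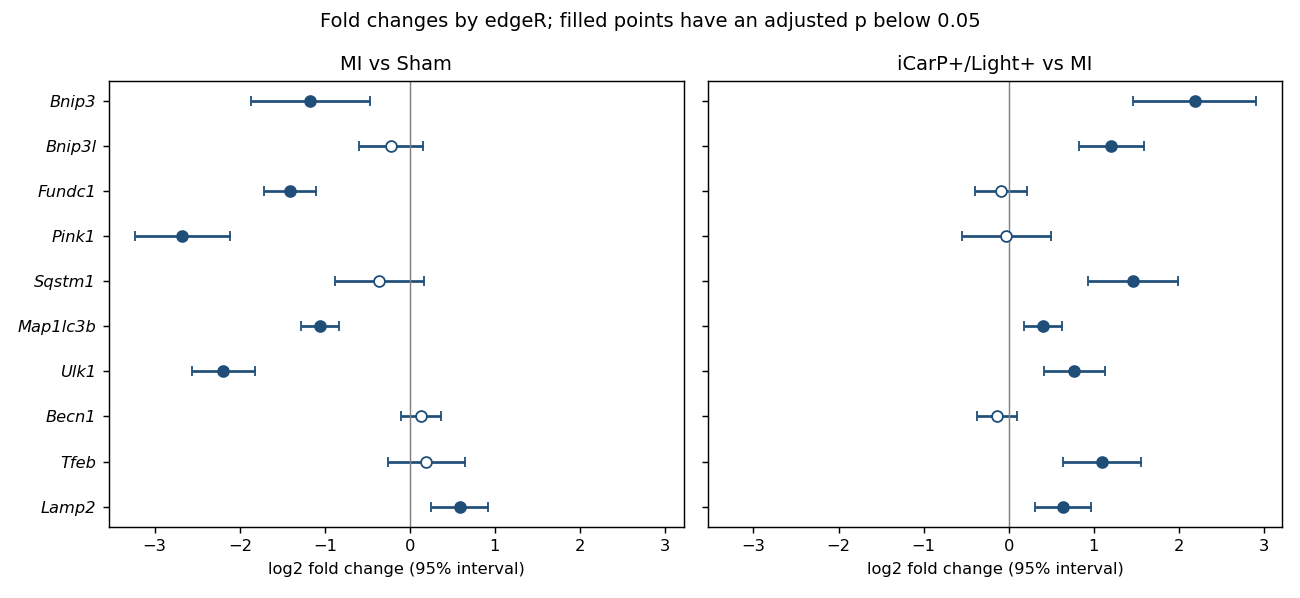
Log2 fold change of each member (x axis, the same scale in both panels) from Sham to MI (left) and from MI to iCarP+/Light+ (right) with its 95% interval, filled where the adjusted p was below 0.05. Pink1 had the lowest value on the left (-2.67) and lay at -0.03 on the right, where Bnip3 had the highest (2.19).

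The receptors were compared directly with Pink1, 1 gene of its route, by the log2 ratio of 2 genes within each rat. In this ratio the scaling of libraries cancels but for the prior count. Bnip3 stood at 0.158 to 0.218 of Pink1's CPM in Sham rats, at 0.338 to 0.676 in MI rats and at 1.10 to 4.75 in iCarP+/Light+ rats. The 3 groups did not overlap, and Bnip3 exceeded Pink1 in 4 of 4 iCarP+/Light+ rats. The mean log2 ratio rose from -2.40 ± 0.19 in Sham to -1.04 ± 0.55 in MI and 1.34 ± 0.89 in iCarP+/Light+ rats, and the steps were 1.37 and 2.38 (exact permutation test, two-sided, p = 0.0286 for each). The steps for Bnip3l to Pink1 were 2.44 and 1.29 (exact permutation p = 0.0286 for each), from -2.87 ± 0.13 through -0.43 ± 0.26 to 0.87 ± 0.82. Fundc1 to Pink1 rose by 1.29 from Sham to MI (exact permutation p = 0.0286) and differed by 0.0070 between MI and iCarP+/Light+ (exact permutation p = 0.971). The hypoxia-linked receptors were also compared with each other. Bnip3 to Bnip3l dropped by 1.08 from Sham to MI and rose by 1.09 from MI to iCarP+/Light+ (exact permutation p = 0.0286 for each), ending 0.010 from Sham (exact permutation p = 0.914). With 4 rats against 4 the smallest possible p is 0.0286, and adjusted over the 12 comparisons of this kind it is 0.0343. The ratios compare CPM and not molecules, since the genes differ in length.

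**Figure D3:**
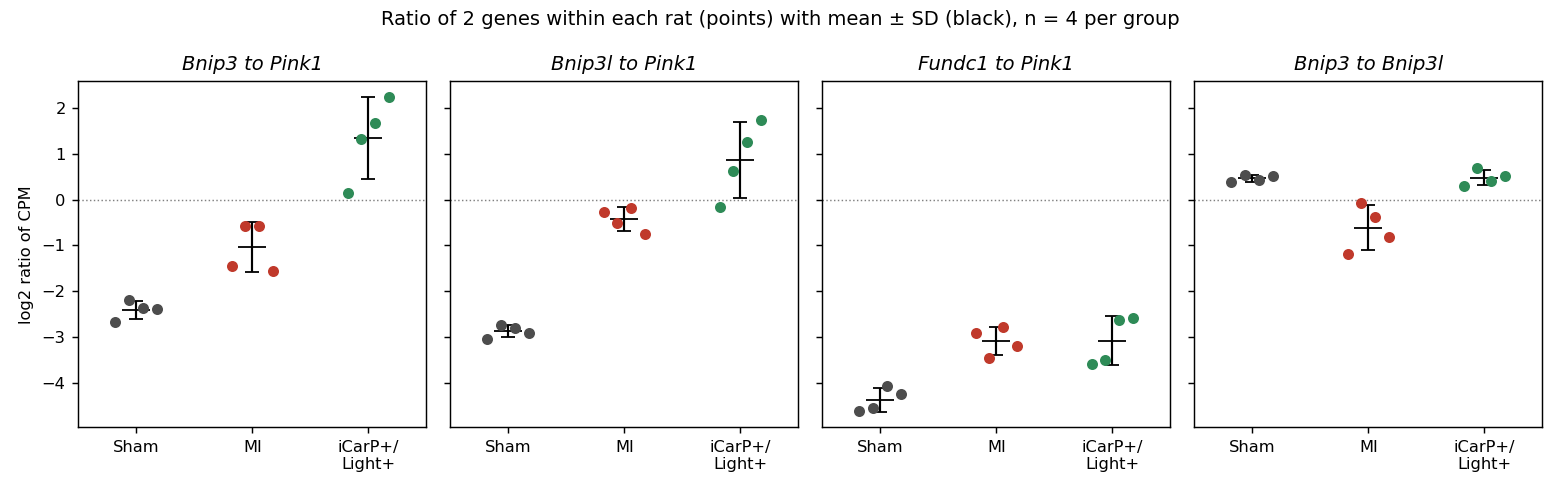
Log2 ratio of the CPM of 2 genes within each rat (y axis, dotted line at equal CPM) by group (x axis), with points for rats and black bars for the mean ± SD of 4. Bnip3 to Pink1 rose over the 3 groups without overlap, Fundc1 to Pink1 had a mean of -3.09 in MI and -3.08 in iCarP+/Light+ rats, and Bnip3 to Bnip3l had a mean of 0.47 in Sham and 0.48 in iCarP+/Light+ rats.

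Per kilobase of gene length, the order of the members differed between groups. In Sham rats Pink1 led with 408 CPM per kb, followed by Sqstm1 (143), Bnip3 (114), Map1lc3b (96.5), Lamp2 (70.6) and Bnip3l (41.8). Sqstm1 and Bnip3 overlapped. Becn1 (24.7), Ulk1 (24.6) and Fundc1 (23.6) overlapped one another, and Tfeb (20.5) overlapped Fundc1 but lay below Becn1 and Ulk1. In MI rats Sqstm1 (111) and Lamp2 (106) led and overlapped, Pink1 was at 63.9 CPM per kb, and Ulk1 was last at 5.38. In iCarP+/Light+ rats the order began with Sqstm1 (307), Bnip3 (232) and Lamp2 (165), whose neighbours in this order overlapped, and Pink1 (62.7), Bnip3l (82.8) and Map1lc3b (61.5) could not be ordered beyond their spread.

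Rat 1 of the iCarP+/Light+ group was the lowest of its 4 rats for all 7 members that rose from MI, and the highest for Pink1. Its Bnip3 was 233 CPM, against 355 to 469 CPM in the other 3. The summed hypoxia-inducible reference genes described next had the same lowest rat, and so did the leukocyte sum (6813 CPM). The erythroid sum was lowest in rat 2 (6188 CPM).

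To place Bnip3 and Bnip3l, 10 other genes known to rise in hypoxia were taken as a reference list. They include Slc2a1 (the glucose transporter GLUT1), Pgk1 and Ldha (glycolytic enzymes), Egln3 (an oxygen-sensing hydroxylase), Vegfa and Adm. From Sham to MI, 2 of these 10 were higher and 3 lower (20% and 30%, against 30.2% and 33.6% of all genes). At the step to iCarP+/Light+ all 10 were higher, against 11.6% of all genes, by a median of 1.56 on the log2 scale. The 3 that fell were Pdk1, a kinase that holds back pyruvate dehydrogenase (246 to 53.9 CPM, adjusted p = 1.98e-06), Egln3 (297 to 85.0 CPM, adjusted p = 0.000787) and Vegfa (279 to 123 CPM, adjusted p = 0.00490). Slc2a1 rose 5.52-fold at the first step and 9.49-fold at the second (adjusted p = 7.58e-05 and 9.17e-05). Pgk1 and Ldha did not pass from Sham to MI (adjusted p = 0.202 and 0.972), and then rose 2.02-fold and 1.98-fold (adjusted p = 0.00525 and 0.00409). The summed level of the list was 2369, 3685, 3545 and 2095 CPM in MI rats 1, 3, 4 and 5, which is high in the same 2 rats in which Bnip3 was high. Those 2 rats were also highest for the cardiomyocyte sum (2826, 5420, 5378 and 4473 CPM) and the erythroid sum (2506, 5077, 6932 and 2633 CPM). They were not the 2 highest for the leukocyte sum (6558, 5285, 7907 and 4674 CPM). The sum of the hypoxia-inducible list was 4915, 8263, 7544 and 9831 CPM in iCarP+/Light+ rats and 2965 to 3151 CPM in Sham rats.

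**Figure D4:**
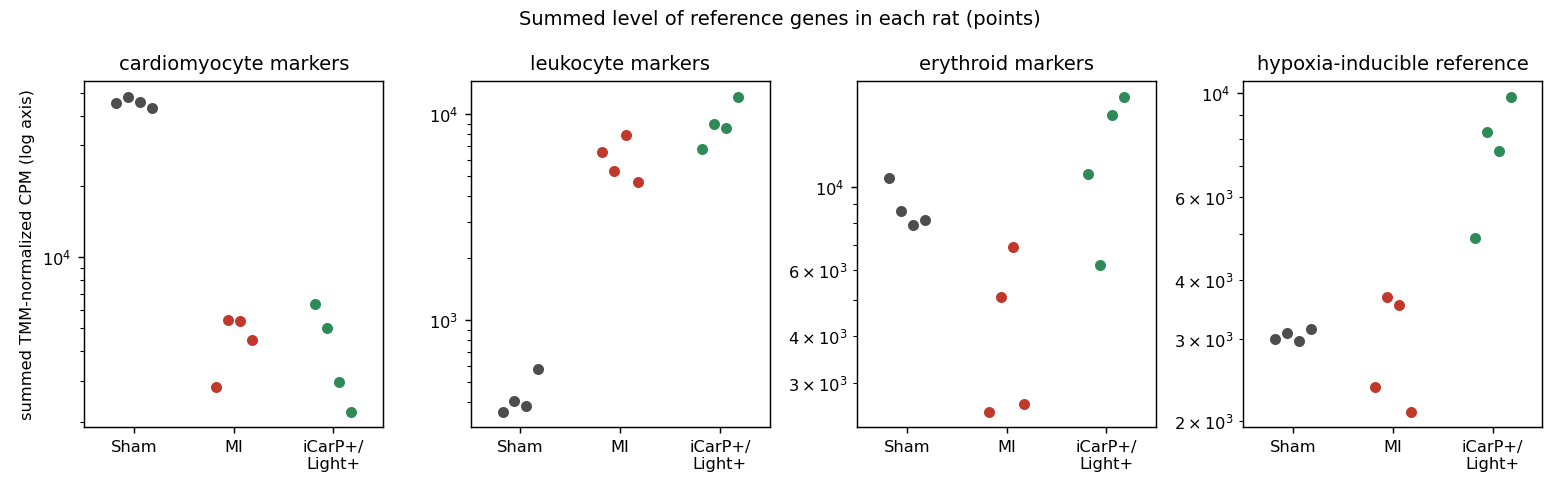
Summed TMM-normalized CPM (log axis) of cardiomyocyte, leukocyte, erythroid and hypoxia-inducible genes in each rat (points) by group (x axis). Cardiomyocyte genes were lower in both infarcted groups than in Sham, leukocyte genes were higher, and the hypoxia-inducible sum was 4915 to 9831 CPM in iCarP+/Light+ rats against 2095 to 3685 CPM in MI rats.

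Over 5 lists of autophagy genes that hold the 10 members, 76 of 80 genes were tested. From Sham to MI 22 were higher and 29 lower (28.9% and 38.2%, beside 30.2% and 33.6% over all genes). From MI to iCarP+/Light+ 18 were higher and 2 lower (23.7% and 2.63%, beside 11.6% and 2.01%). Against Sham, 31 were higher and 25 lower in iCarP+/Light+ rats (40.8% and 32.9%, beside 33.5% and 33%). For the 66 tested genes that are no members, these counts were 21 and 24, 11 and 2, and 26 and 21. Hence 16.7% of the other autophagy genes rose from MI to iCarP+/Light+, where 11.6% of all genes did, and their median change was 0.10 on the log2 scale, against 0.01 over all genes. The count of 20 genes called at this step was 13 without iCarP+/Light+ rat 2, 13 without rat 4, 11 without rat 5 and 11 in the fit of these 2 groups alone.

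The counts for each list stand against 33.6% of all genes lower and 30.2% higher from Sham to MI, and 11.6% higher and 2.01% lower from MI to iCarP+/Light+. Among the 8 mitophagy receptors and their regulators tested, 5 fell (62.5%, or 4 of 8 with DESeq2) and 1 rose from Sham to MI. Bcl2l13 (-0.63), Phb2 (-0.44) and Nlrx1 (-0.36) fell with Bnip3 and Fundc1, and Pgam5, a phosphatase of Fundc1, rose (0.91). At the step to iCarP+/Light+, Nlrx1 (0.51) rose with Bnip3 and Bnip3l. In the Pink1 route, 4 of 11 genes fell (36.4%, near the share of all genes) and 1 rose from Sham to MI, and 4 rose (36.4%) and 1 fell from MI to iCarP+/Light+. Optn, an adaptor that binds ubiquitin on mitochondria, fell 3.25-fold from Sham to MI (-1.70, adjusted p = 1.61e-06) and rose 2.54-fold from MI to iCarP+/Light+ (1.34, adjusted p = 0.000106). Tax1bp1, another adaptor, was at -0.01 at the first step (adjusted p = 0.963) and rose 2.16-fold at the second (adjusted p = 0.000525). Oma1, a stress-activated protease of the inner mitochondrial membrane, fell 1.73-fold at the second step (adjusted p = 0.0135).

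Of 20 initiation and nucleation genes, 10 fell and 2 rose from Sham to MI (50% and 10%, against 33.6% and 30.2% of all genes), and 6 rose from MI to iCarP+/Light+ (30%, against 11.6%). Wipi1, which binds the lipid made on the forming membrane, fell 4.17-fold at infarction (adjusted p = 3.58e-07). Rb1cc1, the scaffold of the ULK1 complex, rose 2.31-fold from MI to iCarP+/Light+ (1.21, SE 0.14, adjusted p = 6.84e-05), and the lipid transfer gene Atg2a rose 1.74-fold (adjusted p = 0.00664). Of 14 tested genes of LC3 and its conjugation, 7 fell (50%) and 5 rose (35.7%) from Sham to MI. Map1lc3a (3.85-fold, adjusted p = 3.55e-06) and Atg10 (3.02-fold, adjusted p = 2.71e-05) fell, and Atg7 (2.96-fold, adjusted p = 9.14e-06) and Atg4c (3.14-fold, adjusted p = 1.48e-05) rose. At the step to iCarP+/Light+ 3 of the 14 rose (21.4%), among them Gabarap (1.60-fold, adjusted p = 0.0165).

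Of 23 lysosomal genes, 13 rose and 3 fell from Sham to MI (56.5% and 13.0%, against 30.2% and 33.6% of all genes), with a median of 0.55, against -0.06 over all genes. From MI to iCarP+/Light+ 2 rose (8.70%, against 11.6% of all genes) and 1 fell (4.35%, against 2.01%). Both that rose, Tfeb and Lamp2, are members, and the 1 that fell was Hexa (1.43-fold, adjusted p = 0.00713). The proteases Ctsb, Ctsd and Ctsl rose 5.00-fold, 4.21-fold and 3.27-fold from Sham to MI (adjusted p = 1.29e-06, 3.22e-06 and 8.58e-06). Rragd, a GTPase of lysosomal nutrient sensing, fell 12.2-fold (adjusted p = 1.21e-06). Leukocytes carry these proteases too, and the leukocyte genes rose by a median of 3.96 on the log2 scale at the same step. Their part in these values was not tested.

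**Figure D5:**
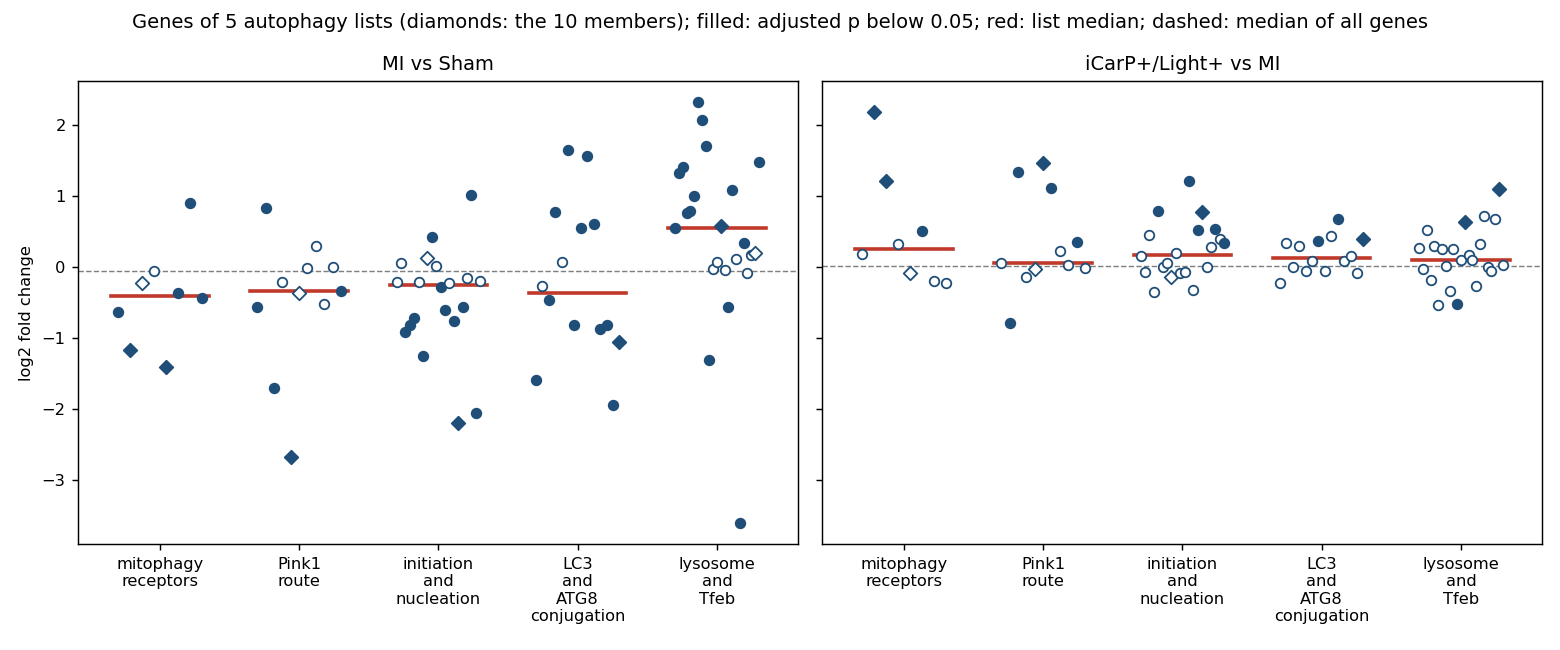
Log2 fold change (y axis) of the tested genes in each of 5 autophagy lists (x axis) from Sham to MI (left) and from MI to iCarP+/Light+ (right), with diamonds for the 10 members, filled symbols for an adjusted p below 0.05, a red line for the list's median and a dashed line for the median of all genes. The lysosomal list had the highest median on the left (0.55), and Bnip3 the highest point on the right (2.19).

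Genes whose level followed Bnip3 and Pink1 were looked up among 10721 protein-coding genes with a mean of at least 5 CPM, by Pearson's r over the 12 rats on the log2 scale. Bnip3 was followed most closely by Egln3 (0.985), Tpi1 (0.980) and Insig2 (0.975). Egln3 averaged 297 CPM in Sham rats, 85.0 CPM in MI rats and 561 CPM in iCarP+/Light+ rats, the same order of groups as Bnip3. Pink1 was followed by Idh2 (0.998), Ckm (0.997) and Hadhb (0.997), genes of mitochondrial metabolism and the creatine kinase of muscle. Ckm averaged 2457 CPM in Sham rats, 243 CPM in MI rats and 235 CPM in iCarP+/Light+ rats. These values describe 12 libraries in 3 groups, and the difference between Sham and the infarcted groups is in all of the Pink1 values.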

How the data were processed

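Read counts per gene, not normalized, were deposited by the authors for 12 rat left ventricles, obtained with HISAT2 and featureCounts on rn6 per the labels. Versions, annotation release and strand setting are not given in the sources used here. All 12 sample columns were mapped by title. The members and lists were chosen with earlier results of these data known.

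Counts were filtered with filterByExpr (minimum count 10), which kept 15101 genes, scaled by TMM, and fitted with edgeR 4.0.16 in R 4.3.3, with 1 mean per group over all 12 rats. Benjamini-Hochberg adjustment ran over all genes, with a threshold of 0.05, and SE and intervals come from that fit. The fits were tested on simulated data. Ratios used log2 CPM (prior count 2) and two-sided exact permutation tests over 70 arrangements, adjusted over 12 comparisons. Counting error alone sets a floor of 3 counts, at most 0.228 CPM in each library.

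Named beside the members were the 5 highest and 5 lowest called genes of the autophagy lists (mean at least 5 CPM), the list genes with the highest means, and the 3 genes that correlated best with Bnip3 and with Pink1. Bcl2l13, Phb2, Nlrx1, Pgam5, Egln3, Pdk1, Vegfa, Adm, Postn, Csf1r and Cd68 were named after their values were seen. Some genes of the lists are not reported here. Promoters came from RefSeq, which gave 7 of 10 members. Alternatives used DESeq2 1.42.0, limma 3.58.1, other scalings and filters, the replicate number as a block, and each rat left out.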

Additional observations from a re-analysis of the deposited data

How the results depend on the processing

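Of 348 values recomputed under 10 other settings, 326 kept their direction and side of the threshold (counts: stayed within 1.5 times). With 1 rat left out, 511 of 528 were counted as kept. There the ratios were not retested, and counted as kept if they moved by less than the larger SD of the 2 groups. Leaving out 1 of 4 rats cannot move a mean that far, so the ratios could not fail. Under total counts alone the ratios could barely move either, since the scaling cancels in them. Becn1 from Sham to iCarP+/Light+ (-0.01) turned to 0.014 with DESeq2's size factors, 0.31 with total counts alone (adjusted p = 0.0200), 0.015 with DESeq2 and with a minimum of 10 counts per rat, 0.012 without a filter and 0.0040 in the fit of the 2 groups alone. With total counts alone Bnip3l (0.35) and Sqstm1 (0.21) turned from Sham to MI, where the median of all genes moved by 0.52, and relative to that median they were -0.17 and -0.31. The number of autophagy genes called from MI to iCarP+/Light+ (20) was 11 in the fit of the 2 groups alone, and 11 to 23 with 1 rat left out. With 1 rat left out, Fundc1 from MI to iCarP+/Light+ ranged from -0.16 to 0.026, Pink1 from -0.23 to 0.12, and Becn1 from Sham to iCarP+/Light+ from -0.061 to 0.058. Rat numbers did not pair the samples: over 9 same-numbered pairs the correlation of deviations was -0.15 to 0.065, and 0 of 12 rats correlated best with their own number. With the replicate number as a block, 10 autophagy genes and 5 members (without Map1lc3b and Lamp2) were called from MI to iCarP+/Light+, and Fundc1 turned to 0.0090. From MI to iCarP+/Light+ the share of calls that were higher, 85.2%, was 70.8% with DESeq2 and 72.4% with that minimum. The cause of the other shifts was not tested. With 4 rats a group, the 95% interval of Pink1's change from MI to iCarP+/Light+ ran from -0.55 to 0.50.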
